A study of Mus musculus with 18 samples.

Results

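Costimulatory and inhibitory receptors of the CD28 group were followed through 9 genes, Ctla4, Cd28, Icos, Pdcd1, Btla, Lag3, Havcr2, Cd200 and Cd274, in regulatory (Treg) and conventional (Tconv) CD4 T cells of mouse lymph node, thymus and fat. The genes were chosen by name from the 18193 genes that had a probe set with a single annotated symbol. They and the gene lists below were chosen with earlier results of these data known. The shares of all genes set beside their counts are therefore a description and not a test of the group. Each gene was represented by its probe set with the highest mean over 18 Affymetrix M430v2 arrays. Ctla4, Cd28, Icos, Pdcd1 and Btla encode receptors of the CD28 family proper. Lag3 and Havcr2 encode inhibitory receptors of other families, and Cd200 and Cd274 encode surface ligands. A filter on dim signals, which asked for at least 1 of 6 group means over an intensity of 65.9 (the median of all deposited values), kept 12834 genes and 8 of the 9 members. Havcr2 did not pass it and is described without a test.

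The study sorted CD4+ cells that were negative for B220, CD11b and CD8a and split them by CD25: positive cells are called Treg below and negative cells Tconv. Each of the 6 groups of tissue and cell type had 3 arrays. Lymph node cells came from C57BL/6 mice of 32 to 36 weeks, with cervical, inguinal and mesenteric nodes, as pools of 3 to 6 mice an array. BDC2.5/NOD mice, aged 4 to 6 weeks, gave the thymus cells; they carry a transgenic T cell receptor on the NOD background and were used as pools of 3 to 6 mice, and CD8a+ cells were depleted before the sort. Fat cells came from the abdominal (epididymal) fat of male C57BL/6 mice of 25 to 35 weeks, as pools of 8 to 10 mice, and were also gated on TCRb. The sex was given for the fat mice only. No group carried a deletion or a drug treatment. Strain and age differ between thymus and the other tissues together with the tissue, so these cannot be told apart there. Replicates are pools, so every error below measures the spread between pools.

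T cells need a signal beside that of the T cell receptor, and CD28 gives it when it binds CD80 or CD86 on a presenting cell. CTLA-4 binds the same ligands more tightly and withholds that signal, and it is among the proteins through which Treg restrain other T cells. ICOS is an inducible receptor that costimulates after activation, whereas PD-1 (Pdcd1), BTLA, LAG-3 and TIM-3 (Havcr2) dampen signalling once they meet PD-L1 (Cd274) or PD-L2, HVEM, MHC class II and galectin-9, in that order. CD200 is a surface ligand that inhibits cells bearing its receptor.

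Promoter sequences of 3 members are given here because these genes carried the widest differences between groups: Ctla4 in every tissue, and Pdcd1 and Btla in fat Treg. They run from 250 bases before to 50 bases after the start of the gene in RefSeq, build GRCm38.p6, and are written 5′ to 3′ on the gene's own strand. Capitals mark matches on either strand to the short cores GGAAA (as in NFAT sites) and AAACA (as in forkhead sites).
Ctla4, chr1:60908775-60909074, + strand: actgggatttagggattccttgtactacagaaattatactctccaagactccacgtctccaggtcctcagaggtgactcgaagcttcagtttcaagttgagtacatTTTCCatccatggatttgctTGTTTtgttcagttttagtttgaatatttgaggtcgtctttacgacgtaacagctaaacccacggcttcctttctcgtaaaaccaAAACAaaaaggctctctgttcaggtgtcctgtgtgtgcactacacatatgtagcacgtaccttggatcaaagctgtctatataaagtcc
Pdcd1, chr1:94052504-94052803, - strand: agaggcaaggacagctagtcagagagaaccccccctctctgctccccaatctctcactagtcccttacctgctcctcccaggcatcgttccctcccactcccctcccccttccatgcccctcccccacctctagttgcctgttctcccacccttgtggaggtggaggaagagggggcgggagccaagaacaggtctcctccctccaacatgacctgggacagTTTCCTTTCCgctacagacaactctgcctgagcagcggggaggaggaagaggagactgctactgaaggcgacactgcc
Btla, chr16:45224087-45224386, + strand: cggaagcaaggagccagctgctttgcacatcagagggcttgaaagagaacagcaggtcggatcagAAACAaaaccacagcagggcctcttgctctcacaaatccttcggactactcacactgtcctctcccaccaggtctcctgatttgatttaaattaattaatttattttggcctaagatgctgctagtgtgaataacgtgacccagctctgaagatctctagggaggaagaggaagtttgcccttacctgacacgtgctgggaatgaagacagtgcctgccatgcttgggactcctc
The Ctla4 promoter held 1 match to GGAAA and 2 to AAACA. In the Pdcd1 promoter GGAAA occurred 2 times, next to each other on the strand opposite to the gene, and AAACA did not occur. The Btla promoter had 1 match to AAACA and 0 to GGAAA. Such short words are common: of 32851 promoters of this length, 61.3% held GGAAA and 50.5% held AAACA. Neither TGANTCA (AP-1), found in 7.81% of all promoters, nor GGTGTGA (T-box), found in 3.98%, occurred in these windows. These matches are descriptions of the letters and not sites of binding. In the RefSeq gene order, Cd28, Ctla4 and Icos follow each other on chromosome 1 with no other protein-coding gene between them. Btla and Cd200 are neighbours on chromosome 16, and Cd274 lies beside Pdcd1lg2, the gene of PD-L2, on chromosome 19.

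The deposited intensities of the 6 fat arrays had medians of 76.9 to 82.2, above those of the 12 other arrays (57.9 to 63.0). Treg and Tconv of a tissue were therefore compared on the deposited scale, and fat was compared with lymph node after quantile normalization of all 18 arrays. T cell markers were present in every group, with 6 of 7 over the filter. All 6 genes of a list of Treg identity, which includes Il2ra, the gene of the sort marker CD25, were higher in Treg than in Tconv of lymph node and thymus, and 5 of 6 were in fat. The shares of all genes called higher were 3.26% in lymph node, 3.3% in thymus and 6.36% in fat. Transcripts of other cells were present in fat although the sort took CD11b- and, in fat, TCRb+ cells. Of 12 macrophage markers 10 lay over 65.9 in fat Treg and 5 in lymph node Treg on the quantile scale, and of 11 endothelial and stromal markers 6 and 2. Several of these passed the filter through fat alone, so no count of their tests against lymph node is given. Cdh5, a defining gene of endothelium, was below the filter in every group. Pecam1, another, read 47.4, 32.9 and 37.3 in fat Treg and 61.0, 49.7 and 59.9 in lymph node Treg. The endothelial receptor genes Kdr and Tek went the other way. Kdr read 508, 210 and 260 in fat Treg and 92.9, 83.7 and 129 in lymph node Treg. Tek read 175, 44.2 and 45.6 in fat Treg and 17.0, 17.2 and 17.8 in lymph node Treg. Between Treg and Tconv of fat the limma fit called 6.36% of all genes higher and 5.24% lower. There 0 of 11 tested macrophage markers and 0 of 6 endothelial and stromal markers passed, and 1 and 0 had an unadjusted p under 0.05. In the same comparison 1 of 8 markers of dendritic cells and MHC class II was higher, H2-Eb1 (1.03 ± 0.19). Of 9 NK and cytotoxic markers 1 was higher, Gzmb, and 4 were lower, Nkg7 (-3.30 ± 0.21), Klrd1 (-1.60 ± 0.36), Klrk1 (-0.52 ± 0.14) and Eomes. The summed level of the 10 measured NK and cytotoxic markers was 3078, 3319 and 2166 in fat Treg and 5661, 5984 and 6213 in fat Tconv, without overlap; their part in the Treg differences of fat was not tested. In bulk samples, fewer cells with a transcript and less of it per cell cannot be told apart.

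Treg expressed more Ctla4 than Tconv in each of the 3 tissues. Icos was higher in Treg of lymph node and thymus, and Pdcd1 in Treg of thymus and fat. Thymus Treg also had more Cd200 and less Cd28, and fat Treg had more Cd274 and far less Btla. A test of the difference between tissue effects called Pdcd1 and Btla, for fat against lymph node. In lymph node 2 of 8 tested members, Ctla4 and Icos, were higher in Treg, where 3.26% of all genes tested were called higher, and 0 were lower, where 1.11% were; at an unadjusted p under 0.05 there were 4 higher and 0 lower. In thymus 4 of 8 were higher (3.3% of all genes) and 1 of 8 was lower (1.82% of all genes). In fat 3 of 8 were higher (6.36% of all genes) and 1 of 8 was lower (5.24% of all genes). Calls required an adjusted p (Benjamini-Hochberg, all genes tested) under 0.05 in limma, and each log2 difference is given with its standard error from that fit.

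**Figure D1:**
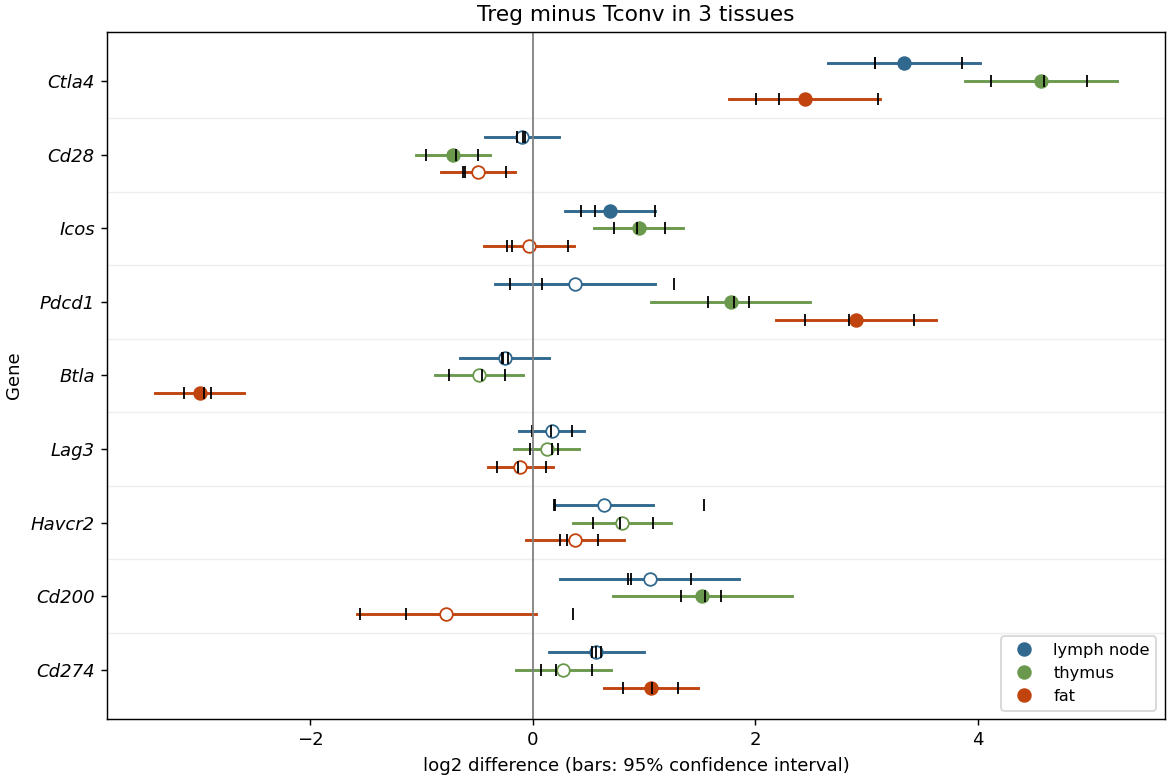
Log2 difference between Treg and Tconv (x axis, deposited scale) for the 9 genes (y axis) in lymph node, thymus and fat. Circles are the limma estimates, filled where the adjusted p is under 0.05, bars are 95% confidence intervals, and black ticks are the differences within the 3 pairs of arrays with the same replicate number; Ctla4 lies right of 0 in all 3 tissues, while Pdcd1 reaches 2.91 and Btla -2.99 in fat.

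Ctla4 was the member with a call in the same direction in all 3 tissues. Its lymph node intensities were 263, 339 and 482 in Tconv and 3827, 2861 and 4079.9 in Treg. In thymus they were 114, 81.3 and 100.2 in Tconv and 2749.7, 1412 and 3175 in Treg. In fat they were 1066, 2458 and 2368 in Tconv and 9169, 9919 and 11003 in Treg. Every Treg array lay above every Tconv array of its tissue, and thymus Tconv was the lowest group. The log2 difference was 3.34 ± 0.32 in lymph node (10.1-fold, adjusted p = 3.29e-06), 4.57 ± 0.32 in thymus (23.7-fold, adjusted p = 9.50e-08) and 2.44 ± 0.32 in fat (5.44-fold, adjusted p = 3.89e-05). Whether the effect was smaller in fat than in lymph node depended on the pairing of arrays: the difference of the effects was -1.10 ± 0.46 (adjusted p = 0.249) without the replicate number as a block and had an adjusted p of 0.0375 with it.

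Ctla4 was also higher in fat than in lymph node among cells of the same type, and the gap was wide in the CD25- cells. After quantile normalization, fat Treg had the highest level (7884 ± 606, SD, n = 3), with no overlap with lymph node Treg (4099.7 ± 907), which overlapped thymus Treg (2574 ± 945). Fat Tconv followed (1707 ± 595), apart from lymph node Tconv (409 ± 161), which was apart from thymus Tconv (107 ± 15.8). The log2 difference between fat and lymph node was 0.97 ± 0.32 in Treg (adjusted p = 0.0284) and 2.07 ± 0.32 in Tconv (4.19-fold, adjusted p = 0.000172). The call in Treg was lost when fat Treg replicate 1, 2 or 3 or lymph node Treg replicate 1 or 2 was left out, with log2 differences of 0.78 to 1.11 over all 6 omissions. The scan file numbers in the labels fall into 5 runs of neighbours, and 3 of these runs hold fat and lymph node arrays. Within those 3 runs the Ctla4 differences were 1.00, 1.34 and 0.55 in Treg and 2.91, 2.48 and 0.81 in Tconv. Foxp3, the defining transcription factor of Treg, read 53.7, 116 and 57.3 in fat Tconv. Lymph node Tconv read 38.9, 53.8 and 51.7. Of these arrays only fat Tconv replicate 2 lay over 65.9, so the signal was dim. Of the 6 genes of the Treg identity list 3 (Il2ra, Tnfrsf18 and Nrp1) were higher in fat than in lymph node Tconv, beside 11.3% of all genes. Ikzf4 was the 1 lower gene, beside 11.6% of all genes, and Foxp3 was not called. Fat Tconv replicate 2 was the highest of its group for Foxp3 and for Ctla4. The quantile-normalized Ctla4 levels of fat Tconv replicates 1 to 3 were 1024.5, 2114.5 and 1982, so replicate 3 was near replicate 2 for Ctla4 and near replicate 1 for Foxp3. The part of transcripts of CD25+ cells in the Ctla4 difference was not tested.

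Cd28, the primary costimulatory receptor, ran the other way, with lower values in Treg of thymus. Its thymus intensities were 3811, 3908 and 4189 in Tconv and 1964, 2420.1 and 2977 in Treg, with no overlap. The log2 difference was -0.71 ± 0.16 (adjusted p = 0.00996), and the call was lost without thymus Treg replicate 1 (-0.56, adjusted p = 0.0667) and in a fit of the 6 thymus arrays alone (adjusted p = 0.0858). In fat the arrays did not overlap either, with 8043, 5818 and 8332 in Tconv and 5272, 4942 and 5393 in Treg. The difference there was -0.49 ± 0.16 and missed the threshold (adjusted p = 0.0531), but it passed with the replicate block (adjusted p = 0.0115), after quantile normalization (adjusted p = 0.026), without fat Tconv replicate 2 (-0.66, adjusted p = 0.0111) and with the other Cd28 probe set, 1417597_at (-0.77, adjusted p = 0.00432). Lymph node Tconv (3174, 3053 and 3436) and Treg (2882, 2873 and 3286.8) overlapped, with a difference of -0.10 ± 0.16. Fat Tconv had the highest quantile-normalized level of the 6 groups (6143 ± 1195) and exceeded lymph node Tconv (3614 ± 375) by 0.75 ± 0.16 (adjusted p = 0.0028), with within-run differences of 1.01, 0.46 and 0.77. The corresponding value in Treg was 0.27 ± 0.16 (adjusted p = 0.221).

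Icos, the inducible costimulator, was bright in all 6 groups and higher in Treg of thymus. There the intensities were 4529.5, 4471 and 3228 in Tconv and 7543, 8559.5 and 7354 in Treg, a log2 difference of 0.95 ± 0.19 (adjusted p = 0.0049). In lymph node, Tconv had 5221, 7521 and 7167 and Treg 11175, 10156 and 10555, again without overlap, and the difference was 0.70 ± 0.19 (adjusted p = 0.046). That lymph node call lay at the threshold: it was lost after quantile normalization (adjusted p = 0.0756), in a fit of the 6 lymph node arrays alone (adjusted p = 0.056) and when any of the 6 arrays was left out (adjusted p of 0.0539 to 0.23). In fat the groups overlapped, with 15651, 9316 and 14118 in Tconv and 13339, 11603 and 12418 in Treg and a difference of -0.03 ± 0.19 (95% confidence interval -0.43 to 0.37). Fat Tconv replicate 2 lay below the other arrays of its group. Icos had 2 other probe sets. With 1421931_at the difference was 1.39 in lymph node (adjusted p = 0.00103), 1.45 in thymus (adjusted p = 0.000785) and -0.15 in fat (adjusted p = 0.833), and the difference between the fat and lymph node effects, -0.76 ± 0.29 with the probe set used (adjusted p = 0.189), was -1.58 (adjusted p = 0.00895). With 1421930_at, whose lymph node Treg replicate 3 fell below the Tconv arrays, neither call was made: the difference was 0.68 in lymph node (adjusted p = 0.654) and 1.38 in thymus (adjusted p = 0.0548). Without fat Tconv replicate 2, the fat effect of the probe set used was lower than that of lymph node by a called difference (-0.99, adjusted p = 0.0425), and fat Tconv exceeded lymph node Tconv by 0.74 (adjusted p = 0.0121), against 0.51 ± 0.20 (adjusted p = 0.0857) with it.

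**Figure D2:**
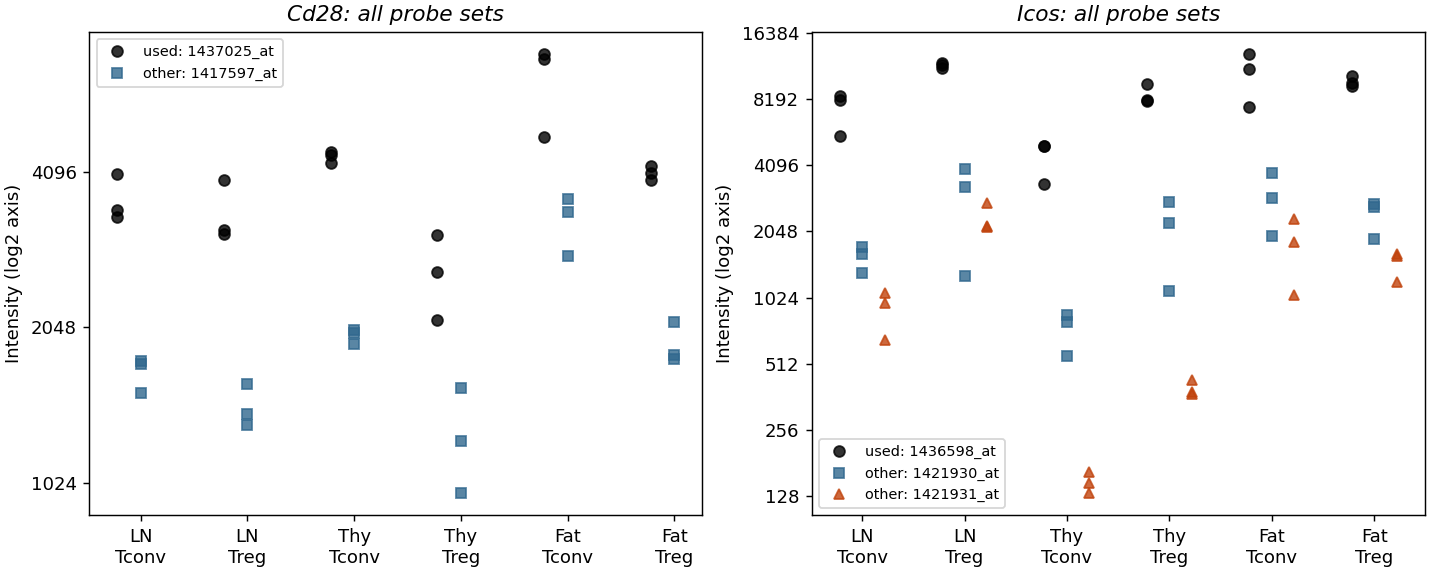
Quantile-normalized intensity (y axis, log2 scale) of every single-symbol probe set of Cd28 (left) and Icos (right) in the 6 groups (x axis), 1 symbol an array. Black circles are the probe set used; Cd28 is lower in Treg than in Tconv of thymus and fat with both probe sets, and Icos probe set 1421930_at has 1 lymph node Treg array below the Tconv arrays.

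Pdcd1, the gene of PD-1, was near the filter in Tconv of every tissue and in lymph node Treg, and it was higher in Treg of thymus and most of all in Treg of fat. Lymph node arrays read 42.8, 77.8 and 90.8 in Tconv and 103, 67.6 and 96.2 in Treg and overlapped. Thymus arrays read 71.4, 51.2 and 56.3 in Tconv and 251, 153 and 217 in Treg. Fat arrays read 63.0, 91.7 and 150.5 in Tconv and 680.4, 502 and 1079 in Treg. All 3 Treg arrays lay above the Tconv arrays in thymus and in fat. The log2 difference was 1.78 ± 0.34 in thymus (adjusted p = 0.00341) and 2.91 ± 0.34 in fat (7.51-fold, adjusted p = 1.01e-05), against 0.38 ± 0.34 in lymph node (adjusted p = 0.871). The thymus Tconv mean lay below the filter, so the size of the thymus difference rests on a dim signal. The pairs of lymph node arrays ran in both directions, with 1.27, -0.20 and 0.08.

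Compared across tissues, the Treg effect on Pdcd1 was larger in fat than in lymph node by 2.63 ± 0.47 (adjusted p = 0.0017), 1 of 8 tested members called higher in this contrast, which called 2.37% of all genes higher. The excess of thymus over lymph node was 1.34 ± 0.47 and did not pass (adjusted p = 0.535). After quantile normalization fat Treg (659.7 ± 236) stood apart from thymus Treg (217 ± 46.5), which stood apart from the other groups, and the remaining 4 overlapped with means of 65.5 to 97.0. Fat Treg exceeded lymph node Treg by 2.72 ± 0.33 (6.61-fold, adjusted p = 6.21e-06), and by 3.05, 2.59 and 2.53 within the runs of file numbers. In Tconv the same comparison gave 0.10 ± 0.33 (adjusted p = 0.874), with within-run values on both sides of 0 (1.41, -0.15 and -0.97).

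Cd274, the gene of the PD-1 ligand PD-L1, was higher in Treg than in Tconv of fat as well. Fat arrays read 941, 816 and 1009 in Tconv and 2322, 1721 and 1767 in Treg, with no overlap and a log2 difference of 1.06 ± 0.20 (2.09-fold, adjusted p = 0.00138). In lymph node they read 604, 650.1 and 558 in Tconv and 875, 968 and 854 in Treg. These did not overlap either, and the difference of 0.57 ± 0.20 missed the threshold (adjusted p = 0.166) but passed with the replicate block (adjusted p = 0.0115). In thymus the groups overlapped (341, 421 and 502 in Tconv and 396, 443 and 728 in Treg), with a difference of 0.28 ± 0.20. Fat Treg (1620.5 ± 252) exceeded lymph node Treg (971 ± 72.5) on the quantile scale by 0.73 ± 0.20 (1.66-fold, adjusted p = 0.00828), by 0.72, 0.57 and 0.90 within runs, and in Tconv the difference was 0.28 ± 0.20 (adjusted p = 0.357). Macrophages also express Cd274. The sort took CD11b- cells, in fat also TCRb+. The summed level of 12 macrophage markers was 4209.7, 1571 and 5613 in fat Treg and 3439, 1006 and 2823 in fat Tconv, against 754 to 1089.7 in the lymph node arrays. Fat Treg replicate 2 had the lowest macrophage sum of its group. Its Cd274 level was the lowest of the group on the deposited scale. After quantile normalization it lay between the other arrays (1911, 1485 and 1465 for replicates 1 to 3). Fat Tconv replicate 2 was the lowest of its group for the macrophage sum and for Cd274 on both scales. The part of macrophage transcripts in the Cd274 differences, between Treg and Tconv of fat and between fat and lymph node, was not tested.

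Btla showed the widest fall of the 9 genes. The inhibitory receptor it encodes binds HVEM (Tnfrsf14). Fat Tconv arrays read 3534, 3382 and 3628 and fat Treg arrays 458, 386 and 489. The fat Treg arrays lay below every other array of the study. The log2 difference between fat Treg and Tconv was -2.99 ± 0.19 (7.95-fold lower, adjusted p = 5.36e-09), and the 3 pairs agreed closely (-2.95, -3.13 and -2.89). Lymph node arrays read 4774, 4794 and 4825 in Tconv and 3975, 3973 and 4152 in Treg, and although these did not overlap, the difference of -0.25 ± 0.19 was not called (adjusted p = 0.811). Thymus arrays overlapped (3638, 3221 and 4695 in Tconv and 2166, 2355 and 3961 in Treg), with a difference of -0.48 ± 0.19 (adjusted p = 0.201). Each thymus Treg array lay below the Tconv array of the same number, and with the replicate block the difference was called (adjusted p = 0.0166); it was called as well without thymus Treg replicate 3 (-0.75, adjusted p = 0.00597).

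The Treg effect on Btla differed between fat and lymph node by -2.69 ± 0.25 (adjusted p = 3.07e-06), and Btla was 1 of 8 tested members called lower in this contrast, which called 2.8% of all genes lower. On the quantile scale, lymph node Tconv had the highest mean (5359 ± 245), apart from lymph node Treg (4616 ± 357), and fat Tconv (2972 ± 122) stood apart from fat Treg (397 ± 37.5). Fat Treg lay below lymph node Treg by a log2 difference of -3.54 ± 0.18 (11.6-fold, adjusted p = 2.19e-10), with -3.35, -3.66 and -3.62 within runs. In Tconv the difference was -0.85 ± 0.18 (1.8-fold lower, adjusted p = 0.0023), with -0.77, -0.93 and -0.85 within runs, but on the deposited scale it was -0.45 and not called (adjusted p = 0.0632). B cells also express Btla. The summed level of 8 B cell markers was 3821, 3890.3 and 4020.1 in lymph node Treg and 3416, 3098 and 3457 in lymph node Tconv. It was 3362, 3230.0 and 2298 in fat Treg and 1644, 3572 and 1830.0 in fat Tconv. Between fat Treg and Tconv 1 of 6 tested B cell markers, Bank1, was lower, beside 5.24% of all genes. Between fat and lymph node Treg 3 of 6 were lower (Ms4a1, Cd79b and Bank1), beside 18.2% of all genes. Of these, Cd79b (1.02 ± 0.26) and Bank1 (1.35 ± 0.19) were also higher in Treg than in Tconv of lymph node, 2 of 6 beside 3.26% of all genes. The sort took B220- cells, and the part of B cell transcripts in the Btla differences was not tested.

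**Figure D3:**
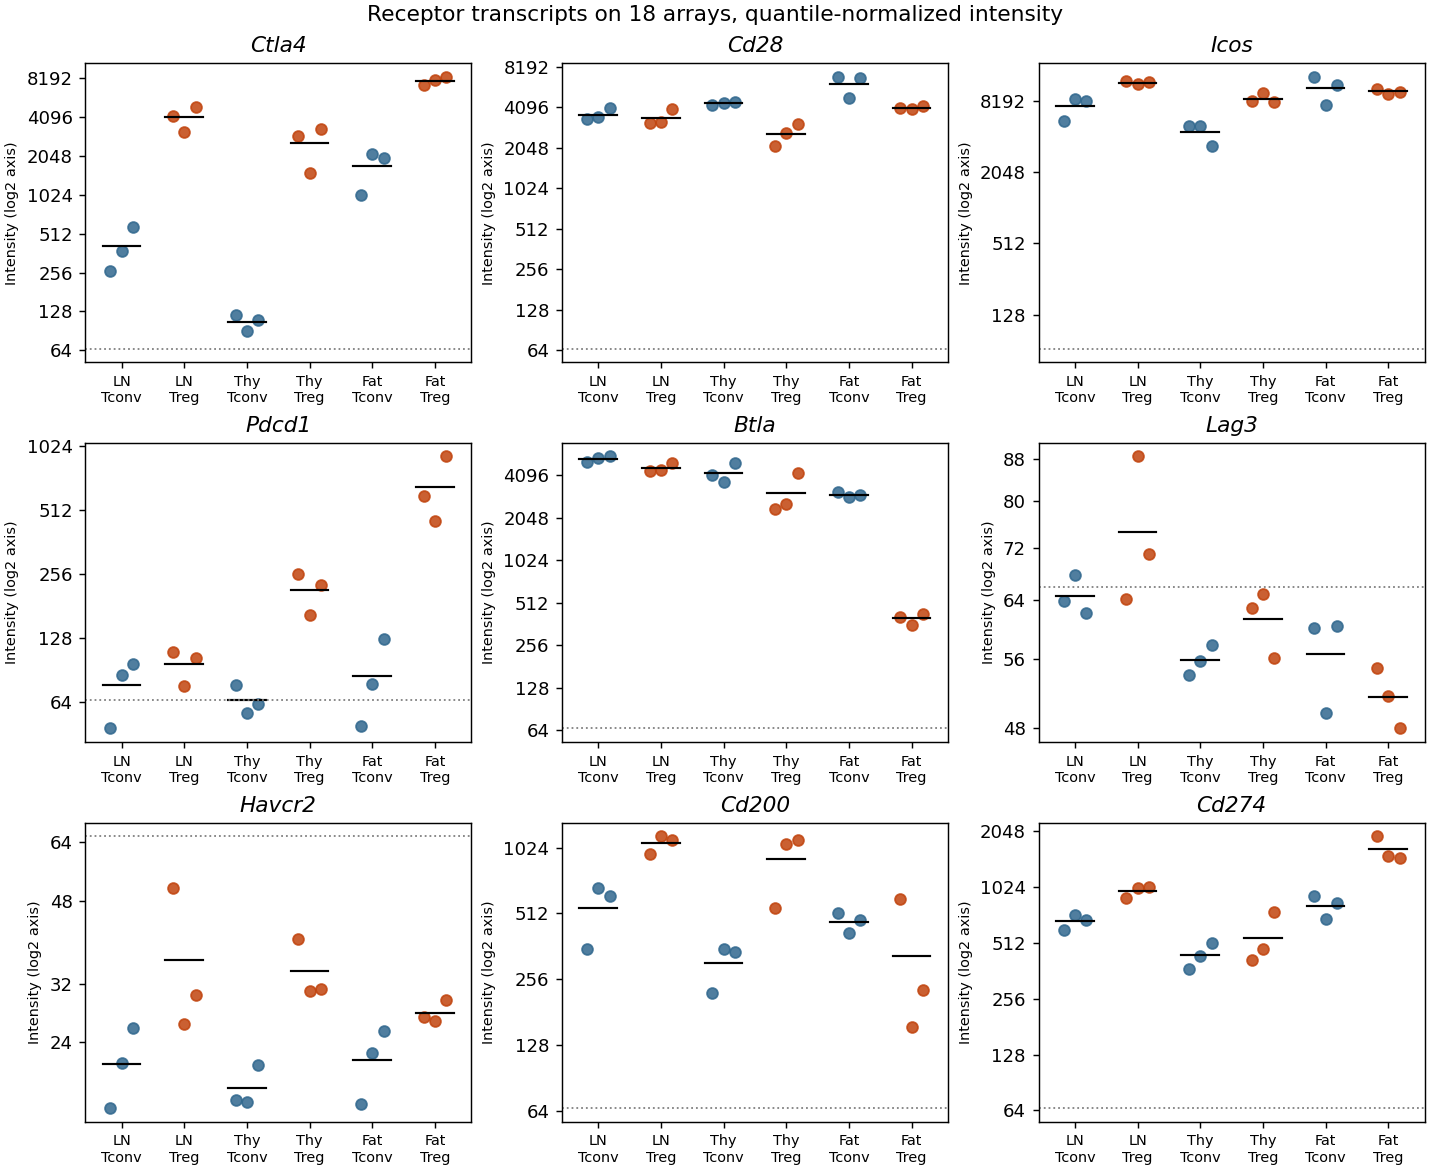
Quantile-normalized intensity (y axis, log2 scale, a separate range for each panel) of the 9 genes on the 18 arrays, by tissue and cell type (x axis; LN, lymph node; Thy, thymus). Points are arrays (blue Tconv, orange Treg; replicates 1 to 3 from left to right), black lines are group means and the dotted line is the filter of 65.9, which was applied on the deposited scale; fat Treg stands lowest for Btla and highest for Pdcd1, Cd274 and Ctla4.

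Cd200, the gene of an inhibitory ligand, was higher in Treg than in Tconv of thymus and gave opposite signs in lymph node and fat. Thymus arrays read 207, 341 and 331 in Tconv and 521, 1000.2 and 1075 in Treg, without overlap, and the difference was 1.53 ± 0.38 (2.88-fold, adjusted p = 0.0233). That call was lost without thymus Treg replicate 2 (1.39, adjusted p = 0.0982), Treg replicate 3 (1.33, adjusted p = 0.067) or Tconv replicate 1 (1.29, adjusted p = 0.121), and in a fit of the 6 thymus arrays alone (adjusted p = 0.0537). In lymph node, Tconv read 351, 601 and 510.4 and Treg 941, 1107 and 925. These groups did not overlap, and the difference of 1.05 ± 0.38 was called with the replicate block (adjusted p = 0.0326) and in a fit of the 6 lymph node arrays alone (adjusted p = 0.0189), but not in the fit of all 18 arrays without the block (adjusted p = 0.189).

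In fat 1 array stood apart for Cd200. Tconv read 525, 504 and 573 and Treg 675, 173 and 259.9, so that Treg replicate 1 lay above the Tconv arrays and the other two below. The difference was -0.77 ± 0.38 (adjusted p = 0.262), and -1.33 (adjusted p = 0.00839) without Treg replicate 1. Endothelial and stromal cells also express Cd200. The summed level of 11 of their markers was 7238, 2635 and 3204 in fat Treg and 5448, 2535 and 2533 in fat Tconv, highest on Treg replicate 1. Fat Treg read 175, 44.2 and 45.6 for Tek and 508, 210 and 260 for Kdr. For Pecam1 it read 47.4, 32.9 and 37.3 and for Cdh5 25.1, 23.7 and 22.8, all below 65.9. Fat Tconv replicate 1 had the highest sum of its group. Its Cd200 level lay between the other Tconv arrays on the deposited scale. On the quantile scale it was the highest (516, 416 and 477 for replicates 1 to 3). The part of endothelial and stromal transcripts in the Cd200 value of Treg replicate 1 was not tested. On the quantile scale fat Treg (327 ± 237) lay below lymph node Treg (1074 ± 103) by a log2 difference of -1.95 ± 0.39 (3.87-fold, adjusted p = 0.000818), by -2.06, -2.91 and -0.89 within runs, and without fat Treg replicate 1 the difference was -2.51. Tconv of fat and lymph node differed by -0.16 ± 0.39 (adjusted p = 0.814). The Treg effect in fat minus that in lymph node was -1.79 ± 0.55 (adjusted p = 0.075), and it was called with the replicate block (adjusted p = 0.00471) and without fat Treg replicate 1 (-2.35, adjusted p = 0.00254).

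Lag3 and Havcr2, the genes of the remaining inhibitory receptors, were dim. Lag3 passed the filter, which was set on the deposited scale, narrowly and through lymph node Treg and fat Tconv alone. Its lymph node Treg arrays read 64.2, 88.5 and 71.0 on the quantile scale against 63.8, 67.8 and 62.1 in lymph node Tconv, 54.9, 51.5 and 47.9 in fat Treg and 60.2, 49.6 and 60.3 in fat Tconv. Treg and Tconv differed by 0.17 ± 0.14 in lymph node, 0.13 ± 0.14 in thymus and -0.11 ± 0.14 in fat on the deposited scale, and none of these was called (adjusted p of 0.837, 0.792 and 0.774). Fat Treg lay below lymph node Treg by -0.52 ± 0.13 on the quantile scale (adjusted p = 0.00492), but on the deposited scale the difference was -0.09 (adjusted p = 0.61), so the call rests on the scale. For Tconv the fat value minus the lymph node value was -0.19 ± 0.13 (adjusted p = 0.331). Havcr2 read 15.4 to 44.8 over all 18 arrays, below the filter throughout. Its deposited intensities were 15.4, 20.1 and 25.1 in lymph node Tconv and 44.8, 23.1 and 28.7 in lymph node Treg, 16.7, 16.0 and 19.3 in thymus Tconv and 35.4, 27.6 and 28.1 in thymus Treg, and 22.8, 26.5 and 29.7 in fat Tconv and 34.3, 32.8 and 35.2 in fat Treg. The Treg arrays lay above the Tconv arrays in thymus and fat and overlapped them in lymph node.

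Between fat and lymph node Treg, 3 of 8 tested members were higher (Ctla4, Pdcd1 and Cd274), beside 16.3% of all genes tested, and 3 of 8 were lower (Btla, Lag3 and Cd200), beside 18.2% of all genes. Lag3 passed the filter narrowly, through fat Tconv and lymph node Treg, the group where it was highest on the quantile scale. Its call therefore adds no support to the count of lower members. Between fat and lymph node Tconv, 2 of 8 were higher (Ctla4 and Cd28), beside 11.3% of all genes, and 1 of 8 was lower (Btla), beside 11.6%. These background shares depend on the scale: in Treg 47.2% of all calls were higher after quantile normalization, 39.9% with arrays centred on their medians and 83.1% on the deposited scale. The corresponding shares in Tconv were 49.2%, 48.5% and 90.3%. On the deposited scale the median of all genes tested was shifted between fat and lymph node by 0.37 in Treg and 0.33 in Tconv. There Cd28 was also called higher in fat Treg (0.79), and Icos (0.96) and Cd274 (0.61) were called higher in fat Tconv. As given above, Lag3 lost its call in Treg and Btla lost its call in Tconv, while Btla kept its call in Treg. Treg effects in thymus and lymph node were not told apart for any tested member: 0 of 8 were called in either direction in limma, beside 0.164% of all genes called higher and 0.164% called lower. At an unadjusted p under 0.05 there were 3, Ctla4 (1.15 ± 0.46), Cd28 (-0.67 ± 0.23) and Pdcd1 (1.34 ± 0.47), and with the replicate block 0 were called.

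**Figure D4:**
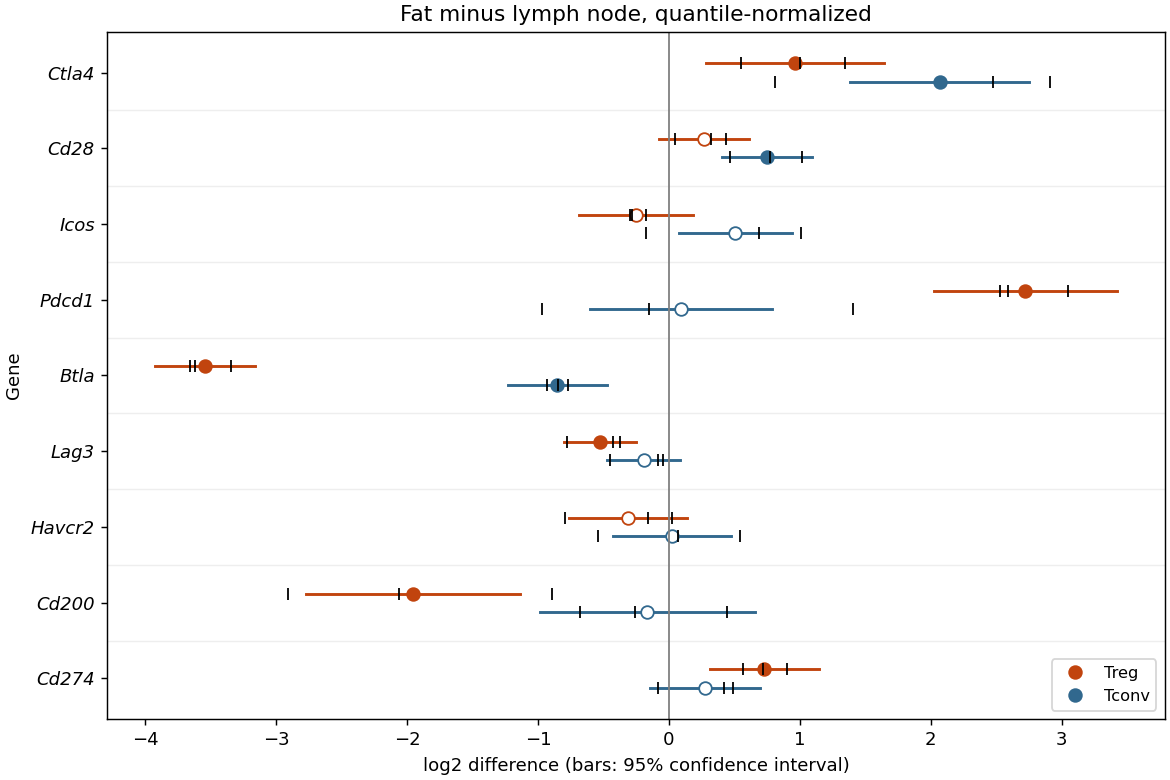
Log2 difference between fat and lymph node (x axis, quantile-normalized scale) for the 9 genes (y axis) in Treg and in Tconv. Circles are limma estimates, filled where the adjusted p is under 0.05, bars are 95% confidence intervals, and black ticks are the differences within the 3 runs of file numbers that hold both tissues; Btla lies at -3.54 in Treg and -0.85 in Tconv, and Pdcd1 at 2.72 in Treg and 0.10 in Tconv.

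Several ligands and partners of these receptors were higher in the Treg themselves. Of 13 measured genes 9 were tested. Between Treg and Tconv 2 of 9 were higher in lymph node (3.26% of all genes), 2 in thymus (3.3%) and 3 in fat (6.36%). In limma 0 of 9 were called lower in any tissue, near the shares of all genes called lower (1.11%, 1.82% and 5.24%). At an unadjusted p under 0.05 there were 0 lower as well. The median difference of the 9 was 0.08, 0.17 and 0.43, beside -0.02, -0.02 and 0.01 for all genes tested. Cd86, a ligand of CD28 and CTLA-4, was higher in Treg of lymph node (2.37 ± 0.21) and thymus (1.34 ± 0.21), and its effect in fat was smaller than in lymph node by a log2 value of -2.41 ± 0.30 (adjusted p = 6.11e-05). Pdcd1lg2, the gene of PD-L2, was higher in Treg of lymph node (1.09 ± 0.23) and fat (1.96 ± 0.23), and Cd200r1, the receptor of CD200, in Treg of fat (1.66 ± 0.24). Lgals3, which encodes a galectin that binds glycoproteins of T cells, was higher in Treg of thymus (1.41 ± 0.24) and fat (1.72 ± 0.24). Fat exceeded lymph node for Lgals3 in Treg (4.34 ± 0.23) and Tconv (2.83 ± 0.23), and for Pdcd1lg2 (1.19 ± 0.22) and Cd200r1 (1.63 ± 0.22) in Treg, while Cd86 was lower in fat Treg (-2.58 ± 0.21). Between the tissues 3 of 9 were higher (16.3% of all genes) and 1 lower (18.2%) in Treg, and 1 of 9 was higher in Tconv (11.3%). Cd86 in fat Treg and in Tconv of lymph node and thymus, and Lgals3 in thymus Tconv and both lymph node groups, had means below the filter, so the sizes of these differences rest on dim signals. Macrophages express these transcripts too, and their marker sums, given with Cd274, were higher in fat; that part was not tested.

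Among other co-receptors of T cells, Tnfrsf4, Tnfrsf9, Tnfrsf18 and Klrg1 were higher in Treg of every tissue; Tnfrsf18 is also in the Treg identity list. Of 18 tested genes 5 were higher and 1 lower in Treg of lymph node, beside 3.26% and 1.11% of all genes. In thymus 4 were higher and 0 lower in limma (3 lower at an unadjusted p under 0.05), beside 3.3% and 1.82%. In fat 4 were higher and 4 lower, beside 6.36% and 5.24%. The median differences were 0.13, -0.01 and 0.11. Tnfrsf4, the gene of OX40, was higher by 2.59 ± 0.26 in lymph node, 3.00 ± 0.26 in thymus and 2.74 ± 0.26 in fat, and Tnfrsf9, the gene of 4-1BB, by 1.52 ± 0.26, 2.15 ± 0.26 and 2.94 ± 0.26. Klrg1, an inhibitory receptor for cadherins, was higher in Treg by 4.29 ± 0.20 in lymph node, 4.71 ± 0.20 in thymus and 2.41 ± 0.20 in fat. In fat Treg the lower genes were led by Slamf6 (-2.82 ± 0.24), Cd96 (-2.48 ± 0.21) and Lair1 (-1.04 ± 0.27), and in lymph node Lair1 was lower (-1.02 ± 0.27); the Lair1 means of both Treg groups lay below the filter. Cd96 (difference of the effects -3.06 ± 0.30), Slamf6 (-2.68 ± 0.35) and Slamf1 (-2.05 ± 0.35) had lower Treg effects in fat than in lymph node, as Btla did, and Tnfrsf9 had a higher effect (1.42 ± 0.39). Against lymph node Treg, 3 of 18 were higher in fat Treg (16.3% of all genes), Klrg1 (1.69 ± 0.20), Tnfrsf4 (1.15 ± 0.25) and Tnfrsf9 (0.99 ± 0.27), and 4 were lower (18.2%). Of these, Cd96 (-3.43 ± 0.21), Slamf6 (-3.09 ± 0.24) and the costimulator Cd27 (-1.30 ± 0.20) changed most. In Tconv 4 of 18 were higher in fat (11.3% of all genes) and 3 lower (11.6%). Klrg1 (3.71 ± 0.20) and Slamf1 (1.90 ± 0.25) were among the higher genes there and Cd27 among the lower (-1.82 ± 0.20).

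Among signalling and trafficking partners of the receptors, more genes were called lower than higher in fat Treg. Of 25 tested genes 2 were higher and 7 lower in Treg than in Tconv of fat, beside 6.36% and 5.24% of all genes. At an unadjusted p under 0.05 in limma there were 5 higher and 7 lower. In lymph node 1 was higher (3.26% of all genes), and in thymus 2 were higher (3.3%) and 1 lower (1.82%), so that the shares of higher genes in fat and lymph node were near those of all genes. The list medians were -0.02, 0.07 and -0.03. Trat1, an adaptor that has been linked to the transport of CTLA-4 to the cell surface, was lower in fat Treg (-2.44 ± 0.18). Cblb, a ubiquitin ligase that restrains signalling when CD28 is not engaged, fell in fat Treg (-1.98 ± 0.19) and was higher in thymus Treg (0.72 ± 0.19), and Grap2, an adaptor that binds CD28, fell in fat Treg as well (-1.47 ± 0.28). Prkcq, a kinase downstream of CD28, was lower in Treg of thymus (-0.69 ± 0.18) and of fat (-1.42 ± 0.18). Cish, a STAT5 target that dampens T cell receptor signalling, was higher in Treg of lymph node (1.84 ± 0.17), thymus (2.24 ± 0.17) and fat (1.52 ± 0.17), and Zc3h12a, whose product degrades the transcript of Icos among others, was higher in fat Treg (2.12 ± 0.30). The Treg effect was lower in fat than in lymph node for Trat1 (-2.57 ± 0.26), Cblb (-2.21 ± 0.28) and Prkcq (-1.20 ± 0.27) and higher for Zc3h12a (1.74 ± 0.43). Ptpn6, the gene of the phosphatase SHP-1 that inhibitory receptors recruit, was lower in fat than in lymph node in Treg (-1.53 ± 0.18) and Tconv (-0.95 ± 0.18).

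Transcription factors with known action on these receptor genes were called in every tissue. Of 15 tested genes 5 were higher and 1 lower in Treg of lymph node, beside 3.26% and 1.11% of all genes. In thymus 6 were higher (3.3% of all genes), and in fat 6 were higher (6.36%) and 3 lower (5.24%). The medians were 0.54, 0.66 and 0.65. Foxp3, which is also in the Treg identity list, is 1 of the higher genes in each tissue. Prdm1, which encodes Blimp-1, was higher in Treg of lymph node (1.47 ± 0.15), thymus (1.08 ± 0.15) and fat (1.55 ± 0.15), and Irf4 was higher in Treg of lymph node (1.87 ± 0.26) and fat (2.40 ± 0.26). Maf was higher in Treg of lymph node (1.13 ± 0.29) and thymus (2.60 ± 0.29), and Tox2 in Treg of fat (2.71 ± 0.65). Eomes was lower in Treg of lymph node (-1.14 ± 0.29) and fat (-3.33 ± 0.29) and higher in thymus Treg (1.83 ± 0.29), where its Tconv mean lay below the filter. Nfatc2 was lower in fat Treg (-0.84 ± 0.15). Tbx21, the gene of T-bet, passed the filter through fat Tconv alone. Its deposited intensity was 1355 ± 459.7 (SD, n = 3) there, against 57.3 ± 20.8 in fat Treg and 35.1 ± 8.89 in lymph node Tconv. These levels are given as a description. Tbx21 is 1 of the 3 genes lower in fat Treg and 1 of the 8 higher in fat than in lymph node Tconv. Since the filter kept it through the group where it was high, its calls add no support to these counts. Eomes is also in the list of NK and cytotoxic markers. Nkg7, another gene of that list, was lower in fat Treg as given above. It was higher in fat than in lymph node Tconv (3.97 ± 0.20), with a lower Treg effect in fat than in lymph node (-4.12 ± 0.29). Of 9 tested genes of that list 4 were higher and 2 lower in fat than in lymph node Tconv, beside 11.3% and 11.6% of all genes. The lower genes were Klrd1 (-1.04 ± 0.34) and Prf1 (-0.50 ± 0.16). The part of NK and cytotoxic transcripts in the Tbx21 and Eomes values was not tested. Against lymph node, 8 of 15 were higher in fat Treg (16.3% of all genes) and 8 in fat Tconv (11.3%). The activation-induced nuclear receptors Nr4a2 (5.05 ± 0.33 in Treg, 6.14 ± 0.33 in Tconv) and Nr4a1 (4.04 ± 0.21 in Treg, 3.50 ± 0.21 in Tconv) were among the largest of these, with the lymph node Tconv mean of Nr4a2 below the filter. The Treg effect was higher in fat than in lymph node for Tox2 (3.94 ± 0.96) and lower for Eomes (-2.25 ± 0.39) and Nfatc2 (-0.80 ± 0.20). For thymus against lymph node it was higher for Eomes (2.92 ± 0.39) and lower for Irf4 (-2.06 ± 0.38).

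The genes whose quantile-normalized log2 values followed each member most closely over the 18 arrays are given with Pearson's r as a description, since arrays of a tissue share strain, age and processing. For Ctla4 they were Niban1 (0.986), Mdfic (0.969) and Klrg1 (0.955). For Btla they were Evl (0.973), Ppm1k (0.972) and St6gal1 (0.972). Pdcd1 was followed by Slc15a3 (0.949), Evi5 (0.923) and Fah (0.915), and Cd274 by Creb3l2 (0.949), Dusp16 (0.948) and 4833439L19Rik (0.933). Lower values were reached for Cd28 (Stk17b 0.906, Btg2 0.873, Atg16l2 0.846), Icos (Slc25a53 0.910, Maf 0.906, Cpe 0.898) and Cd200 (Cct4 0.871, Cyth3 0.818, Sec24a 0.814), and the lowest for the dim Lag3 (Glt28d2 0.818, Zfp330 0.801, Ighv14-2 0.799). Among the members themselves, r was -0.86 between Btla and Pdcd1, 0.79 between Ctla4 and Icos, and -0.17 between the neighbours Ctla4 and Cd28.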

How the data were processed

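The authors deposited 1 intensity per probe set and array on a linear scale, made with RMA per the submitters' processing notes, in GenePattern per the series' design text; the version and which arrays were normalized together are not given in the sources used here. RNA had been amplified in 2 rounds, per the labels' protocols. Of 45101 probe sets 34945 carried a single symbol, 932 several and 9160 none, and 64 were controls. The deposited intensities were taken to log2. They were fitted with limma 3.58.1 (lmFit, eBayes; R 4.3.3), 1 coefficient per group over all 18 arrays, with 12 residual and 4.74 prior degrees of freedom, and tested on simulated data. Fat against lymph node and differences between tissue effects used quantile-normalized values. Depth has no meaning for arrays; 3 arrays a group limit the precision.

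The members and gene lists were chosen with earlier results of these data known. Named list genes are the called ones with the largest changes, up to 3 in each direction per list and contrast; likeness uses the 3 highest correlations. Treg and Tconv arrays of the same number within a tissue deviated together (r of 0.363 to 0.675 in 9 of 9 pairs), so the number was taken to pair them and was tried as a block; fat and lymph node arrays of the same number did not (r of -0.428 to 0.0939). Other alternatives were the scale, the filter, the arrays in the fit, the variance trend, the probe set, runs of file numbers as a block, and leaving out each array.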

Additional observations from a re-analysis of the deposited data

Results flagged for a closer look

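The Treg effect on Pdcd1 was larger in fat than in lymph node by 2.63 on the log2 scale, as the test of the difference between the tissues gave (adjusted p = 0.0017 in limma); fat Treg exceeded fat Tconv in 3 of 3 pairs, and lymph node pairs ran in both directions. The Treg effect on Btla was lower in fat than in lymph node by the same kind of test, with a difference of -2.69 (adjusted p = 3.07e-06 in limma) and all 3 fat pairs between -3.13 and -2.89. Both kept their calls under every alternative run. Why the tissues differ was not tested.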

How the results depend on the processing

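Of 910 values of single members under an alternative, 859 kept their side of the threshold and their direction, 24 lost a call, 27 gained one and 0 called values changed sign; of 549 uncalled in both fits, 10 changed sign. Treg against Tconv in lymph node called 2 members, but 1 after quantile normalization, 1 with no filter on dim signals, 4 with the replicate block (Cd200 and Cd274 joining), and 1 to 1 with any array left out. Thymus called 5 members and 3 in the fit of its 6 arrays alone (Cd28 and Cd200 lost). The Treg effect in fat minus that in lymph node called 2 members and 4 with the replicate block (Ctla4 and Cd200 joining). The block also changed the calls of Cd28 in fat and Btla in thymus, given above, and no other. No result of a member reversed. The block for fat against lymph node, where the numbers do not pair arrays, left 6 members called in Treg and 3 in Tconv, as did runs of file numbers.

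Counts over all genes moved more. With the block they were 1049 (562 without) in lymph node, 1549 (656) in thymus, 2669 (1488) in fat, 1463 (663) for the fat interaction and 137 (42) for the thymus one. Thymus gave 396 in its 6 arrays alone and 991 without Treg replicate 3, and the thymus interaction 19 to 68 with 1 array left out. On the deposited scale fat against lymph node called 7045 (4423 after quantile normalization) in Treg and 5457 (2937) in Tconv. The cause of these moves was not tested. Signals near the background limit Lag3, Havcr2 and Pdcd1 outside thymus and fat Treg.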
